A study of Mus musculus with 10 samples.

Results

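Akt/Nras tumours of the mouse liver were compared with normal liver, gene by gene, in the RNA of whole tissue. The comparison used 7 of the 10 libraries of the series, and its members were the genes with at least 1 FPKM in 3 or more of these 7 libraries, 12081 of 56748 in the deposited table. FPKM is a count of sequenced fragments scaled by gene length and library size. The 4 normal livers came from wild-type mice of the FVB strain. The 3 tumours, labelled as hepatocellular carcinoma, carried the treatment label Akt/Nras and the genotype label WT, and were raised by hydrodynamic tail vein injection, a rapid injection that brings plasmid DNA into hepatocytes. All 7 samples are thus of wild-type genotype. The tumours differ at least by the injected DNA, and the labels do not exclude other differences between the groups. The labels do not give the age or sex of the mice, the promoter or the form of the injected genes, whether the normal livers were injected with anything, or whether each sample came from a separate mouse. The p-values therefore measure the spread between these samples, which may be technical.

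AKT is a kinase that carries growth factor and insulin signals to metabolism and cell survival, and NRAS is a small GTPase that passes receptor signals to the RAF, MEK and ERK kinases. Hepatocytes, the main cells of the liver, make most plasma proteins, bile acids and urea and clear drugs and hormones from the blood, under a set of transcription factors that includes HNF4A, CEBPA and FOXA2. Cells lining the bile ducts, the cholangiocytes, share an embryonic origin with hepatocytes but express SOX9 and keratin 19 in place of these programmes.

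The 2 genes named by the treatment label were higher in the tumours. Akt1 read 21.6, 20.6, 20.9 and 21.5 FPKM in the normal livers and 963, 719.5 and 958 FPKM in the tumours. Nras read 5.56, 5.42, 4.84 and 5.51 FPKM in the normal livers and 11, 9.62 and 10.7 FPKM in the tumours, and in both genes every tumour lay above every normal liver. The markers of the labelled tissue were present in all 7 libraries, since the summed level of 12 hepatocyte markers was 71525 to 75806 FPKM in normal liver and 25496 to 27991 FPKM in the tumours. That of 12 cholangiocyte markers was 26.8 to 33.4 FPKM and 4357 to 5994 FPKM. Most of the tumour sum was Spp1, the secreted protein osteopontin, and without it the other 11 summed to 12.6 to 14.3 FPKM and 266 to 352 FPKM. In whole tissue, fewer cells of a type and less RNA per cell cannot be told apart, and this holds for every result that follows.

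Of the genes tested, 3690 were called higher in the tumours (30.5% of all) and 4714 lower (39%) at a limma adjusted p under 0.05. Every tumour lay above every normal liver in 3670 genes (30.4%) and below every normal liver in 4638 (38.4%), so such separation was common. The shares are the background against which each group of genes below is read. The scaling of the libraries bears on them. Depth was 13585055 to 17529948 reads per normal liver and 16158825 to 21262035 reads per tumour, but the deposited FPKM summed to 692010 to 743203 in normal liver and to 349619 to 381653 in the tumours. When every library was brought to the same total, a scaling named equal totals in what follows, the median over all genes of the log2 change went from -0.09 to 0.69, and 69.1% of genes were called higher and 14.2% lower. Every gene called higher with the deposited scaling was also called higher with equal totals. Of the 4714 genes called lower, 1718 were called lower in both and 1333 were called higher with equal totals. Counts for gene groups are therefore given with the deposited scaling first and with equal totals second. A gene described as not called was not called with the deposited scaling, and of 39 such genes named here 30 were called higher with equal totals and 0 lower. Some genes were under 1 FPKM in every normal liver and could pass the filter only by being high in tumours, and their number is given beside each list that held 2 or more. The log2 changes are differences of log2(FPKM + 1).

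The most abundant transcripts changed place. In normal liver the 10 highest were Alb, Apoa2, mt-Co1, Rn18s-rs5, Apoa1, Apoe, Mup12, mt-Cytb, Fabp1 and mt-Nd1. In the tumours they were Alb, Trf, Rn18s-rs5, Hp, Apoe, Hpx, mt-Co1, Ahsg, Spp1 and Clu. The albumin gene Alb kept the first rank in both and held 4.85% to 5.48% of the summed FPKM in normal liver and 4.82% to 5.98% in the tumours. Its level was 37040, 40701, 35055 and 38305 FPKM in the normal livers and 18709, 20890 and 18384 FPKM in the tumours. The groups did not overlap, and Alb was called lower with the deposited scaling and not called with equal totals. The major urinary proteins, pheromone carriers of the male liver, made up 6.19% to 6.77% of the summed FPKM in normal liver and 0.134% to 0.412% in the tumours. The 50 highest genes held 50.6% to 53.2% of the summed FPKM in normal liver and 41.4% to 43.1% in the tumours.

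Secreted plasma proteins did not move as 1 group. Of 27 such genes 2 rose and 23 fell with the deposited scaling, and with equal totals 9 rose and 12 fell. The iron carrier transferrin, Trf, read 8837, 8345, 7795 and 8896 FPKM in the normal livers and 18002, 16127 and 16990 FPKM in the tumours, so that every tumour was above every normal liver (limma adjusted p = 3.39e-05, log2 change 1.01, SE 0.13). The heme-binding Hpx rose from 3771 ± 348 FPKM (n = 4, SD) to 5878 ± 1203 FPKM (n = 3, SD). Apolipoprotein A-II, a protein of high-density lipoprotein, went the other way. Apoa2 read 28931, 33344, 31745 and 30801 FPKM in the normal livers and 2533, 3019.9 and 3571 FPKM in the tumours and was 10.3-fold lower in the tumours, and Apoa1, the main protein of the same particle, was 6.28-fold lower. The lipid-binding Apoc1, Itih1 of the hyaluronan-binding inter-alpha inhibitors, and the cystatin-like Fetub were 4.84-fold, 6.03-fold and 5.88-fold lower. Ahsg, a related fetuin, was not called and stood at 4812 ± 197 FPKM (n = 4, SD) and 5163 ± 470.1 FPKM (n = 3, SD). Fabp1, the fatty acid binding protein of the hepatocyte cytosol, read 11700, 12408, 11205 and 12815 FPKM in the normal livers and 262, 621 and 479 FPKM in the tumours. The chaperone clusterin, Clu, which is also secreted, was 5.69-fold higher. The lipoprotein scaffold Apob and the fibrinogen chain Fgb were lower with the deposited scaling, at 380 and 186 FPKM and at 1409 and 767 FPKM, and neither was called with equal totals.

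Clotting factors were mostly lower. Of 17 coagulation genes 0 rose and 16 fell, and with equal totals 1 rose and 12 fell. Plasma kallikrein, Klkb1, went from 72.4 ± 4.1 FPKM (n = 4, SD) to 4.4 ± 0.801 FPKM (n = 3, SD), antithrombin, Serpinc1, was 6.9-fold lower and prothrombin, F2, 2.41-fold lower. The cofactor protein S, Pros1, was the member not called, at 16.1 and 15.4 FPKM. Protein C, Proc, was 4.38-fold lower, and F9, whose loss causes haemophilia, was lower with the deposited scaling only, at 87.8 and 38.9 FPKM. The tissue side of clotting and plasmin formation moved oppositely, with 9 of 10 tested genes higher under both scalings. Of these 4 were under 1 FPKM in every normal liver. Plaur, the urokinase receptor, and Plat, tissue plasminogen activator, rose from 0.184 to 10.2 and from 0.0527 to 6.47 FPKM, whereas tissue factor, F3, rose 2.43-fold. Plau, urokinase, rose from 0.302 to 2.67 FPKM. Tfpi2, a protease inhibitor of this list, was called lower at 29.5 ± 3.84 FPKM (n = 4, SD) and 11.4 ± 4.34 FPKM (n = 3, SD) and was not called with equal totals.

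Complement genes were mostly lower, with 1 of 20 higher and 18 lower, and 5 and 13 with equal totals. The pore-forming C8b and C8g were 18-fold and 11.9-fold lower, C6 10.2-fold and the lectin Mbl2 9.3-fold. C9, the last protein of the pore, was 4.32-fold lower. C3, the protein on which the complement pathways converge, was the member that rose, by 1.49-fold to 2572 ± 262 FPKM (n = 3, SD). The acute phase proteins, which the liver secretes in inflammation, split further: 7 of 19 were higher and 5 lower, or 12 and 2 with equal totals. Haptoglobin, Hp, read 3505, 1932, 3077 and 3634 FPKM in the normal livers and 8422, 8778 and 9851 FPKM in the tumours. Orm2, an orosomucoid, rose 7.4-fold and Il1rn, the interleukin 1 receptor antagonist, 33.3-fold. The serum amyloid genes did not follow them. Saa1 stood at 56.6, 18, 66.6 and 66.5 FPKM in the normal livers and 8.12, 14.8 and 59.4 FPKM in the tumours, with overlapping groups, and was not called (limma adjusted p = 0.0989), nor were Saa2 and Saa3, and Saa4 was 7.02-fold lower. Serpina3n, a protease inhibitor of the same response, was not called, and Orm1 was called lower with the deposited scaling and higher with equal totals, at 1219 and 782 FPKM.

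Among the plasma protein, coagulation, complement and acute phase lists the largest fall was of hepcidin, the hormone that blocks iron export into the blood. Hamp read 4022, 5169, 5461 and 4771 FPKM in the normal livers and 31.1, 19.1 and 40.9 FPKM in the tumours, 160-fold lower in the tumours (log2 change -7.33, SE 0.25, limma adjusted p = 6.64e-09). Its near-identical neighbour Hamp2 went from 22.4 to 0.0322 FPKM, and reads could be split between the 2 copies. Of 20 iron and heme genes 6 were higher and 14 lower, and with equal totals 10 and 9. Bmp6, the endothelial signal that raises hepcidin, was 3.88-fold higher, at 1.79 ± 0.473 FPKM (n = 4, SD) and 6.96 ± 2.94 FPKM (n = 3, SD). Hjv, the coreceptor of that signal on hepatocytes, and Tfr2, the second transferrin receptor, were 4.31-fold and 3.05-fold lower. Tfrc, the receptor through which cells take up transferrin-bound iron, rose from 3.99 ± 0.868 FPKM (n = 4, SD) to 21.5 ± 4.21 FPKM (n = 3, SD), and Slc11a2, the iron importer of the endosome, 2.12-fold. Alas1, which starts heme synthesis in the liver, was 4.5-fold lower. Slc40a1, the iron exporter that hepcidin blocks, was 2.68-fold lower, and the ferritin heavy chain Fth1 1.58-fold higher. Alad, the second enzyme of heme synthesis, was 3.68-fold lower.

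**Figure D1:**
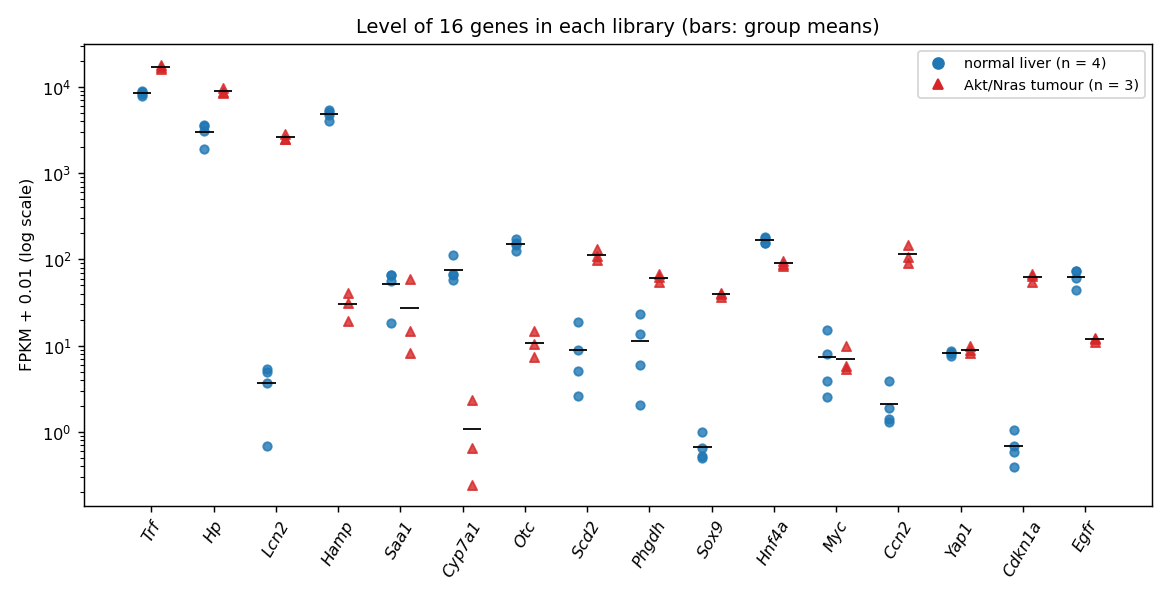
FPKM of 16 genes (vertical axis, log scale, with 0.01 FPKM added so that zeros can be drawn) in each of the 4 normal livers (circles) and 3 Akt/Nras tumours (triangles). Trf, Hp and Lcn2 are above all normal livers in every tumour, Hamp and Cyp7a1 are below them, and Saa1, Myc and Yap1 have groups that overlap.

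Genes of hepatocyte metabolism were mostly lower across pathways. All 8 urea cycle genes fell, and 7 did with equal totals. Otc, ornithine transcarbamylase, read 125, 175, 155 and 145 FPKM in the normal livers and 7.38, 10.3 and 14.7 FPKM in the tumours, and the rate-limiting Cps1 and the later enzymes Ass1, Asl and Arg1 were 7.33-fold, 8.14-fold, 7.52-fold and 3.67-fold lower. Of 11 bile acid synthesis genes 9 fell under both scalings. Cyp7a1, the rate-limiting enzyme, read 57.5, 66.1, 111 and 68 FPKM in the normal livers and 0.233, 0.647 and 2.33 FPKM in the tumours, and Cyp8b1, which makes cholic acid, was 144-fold lower. Cyp27a1, of the alternative route, and Baat, which conjugates bile acids, were 16.9-fold and 7.94-fold lower. Cyp39a1, an oxysterol 7-alpha-hydroxylase, was the exception, rising from 3.28 ± 0.599 FPKM (n = 4, SD) to 27.4 ± 5.42 FPKM (n = 3, SD) (limma adjusted p = 4.94e-08). The uptake carriers of bile acids and anions fell with the enzymes: Slc10a1, the sodium-dependent bile acid importer, was 41.7-fold lower, Slco1b2 22.6-fold and Slc22a7 391-fold. Abcb11, the bile salt export pump of the canaliculus, was 4.77-fold lower, and Abcc3, an exporter of the basolateral side, was lower with the deposited scaling only, at 50.8 and 33.9 FPKM, a call lost on leaving out normal liver replicate 1, 2 or 4 or Akt/Nras replicate 2 or 3 (adjusted p by limma from 0.0542 to 0.142). Of the 16 transporters tested 3 rose and 13 fell (4 higher and 11 lower with equal totals). Those that rose were the basolateral exporter Abcc4 (0.334 to 6.05 FPKM), Slc51b (1.47 to 3.05 FPKM), 1 chain of a basolateral exporter, and the drug exporter Abcb1a (1.09 to 3.97 FPKM). Slc51a, the partner chain of Slc51b, did not reach the filter, at 0.149 and 0.0591 FPKM. The call of Slc51b was lost on leaving out normal liver replicate 1 or 4 or Akt/Nras replicate 1 (adjusted p by limma from 0.058 to 0.10).

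Conjugating enzymes of drug clearance gave 4 higher and 23 lower of 35, and 12 and 19 with equal totals. The bilirubin-conjugating Ugt1a1 went from 27.8 ± 1.33 FPKM (n = 4, SD) to 1.94 ± 0.646 FPKM (n = 3, SD), and the sulfotransferase Sult5a1 was 87.4-fold lower. The glucuronosyltransferases Ugt2b1 and Ugt3a2 were 13.4-fold and 12.9-fold lower. Glutathione transferases were split, as Gstm3, Gstm5 and Gstp1 were 2.61-fold, 2.46-fold and 1.53-fold higher, Gsta3 was 4.89-fold lower and Gstm1, at 1552 and 1252 FPKM, was not called. Several of these genes have near-identical copies, whose reads the counting could split.

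Genes of fat metabolism were mostly lower on both the making and the burning side. All 25 fatty acid oxidation and ketogenesis genes fell, and with equal totals 2 were higher and 20 lower. Ehhadh and Acaa1b, enzymes of the peroxisome, were 9.01-fold and 11.1-fold lower. Ppara, the nuclear receptor of these genes, went from 31 ± 7.22 FPKM (n = 4, SD) to 5.84 ± 0.847 FPKM (n = 3, SD). Cpt1a, the gate of fatty acid entry into mitochondria, was 2.47-fold lower, and Acadm, a dehydrogenase of the oxidation spiral, 3.26-fold. Of 24 cholesterol genes 22 fell and none rose, with 18 lower and 1 higher with equal totals. Tm7sf2 and Msmo1, enzymes of the later steps, were 11.2-fold and 7.77-fold lower. Sqle, squalene epoxidase, was lower with the deposited scaling only, at 30.4 and 19.2 FPKM. Srebf2, the transcription factor of these genes, was not called, at 16.2 ± 2.0 FPKM (n = 4, SD) and 17.4 ± 2.36 FPKM (n = 3, SD).

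Of 24 lipogenic genes 19 fell and 3 rose (14 and 6 with equal totals). The fatty acid synthase Fasn went from 142 ± 40.5 FPKM (n = 4, SD) to 28.5 ± 12.6 FPKM (n = 3, SD), the lipogenic regulator Thrsp was 42.7-fold lower and the elongase Elovl3 116-fold. Acly, which makes acetyl-CoA from citrate, and Elovl6, an elongase, were 2.88-fold and 6.64-fold lower. Acaca, the carboxylase of the pathway, and Srebf1, its transcription factor, were lower with the deposited scaling only, Srebf1 at 90 and 49.5 FPKM. The desaturases parted. Scd1, the main isoform of adult liver, was 2.63-fold lower with the deposited scaling, and this was not called with equal totals. Scd2, its paralog, read 18.7, 2.61, 8.84 and 5.01 FPKM in the normal livers and 97.3, 132 and 108 FPKM in the tumours, so that all tumours were above all normal livers. Elovl7, an elongase, rose from 0.173 to 7.06 FPKM. Genes of the lipid droplet were mixed (6 higher and 7 lower of 15), with 9 and 3 with equal totals and 2 tested genes under 1 FPKM in every normal liver. Hilpda, an inhibitor of fat breakdown, rose 20.6-fold, the droplet-fusing Cidea from 0.0383 to 6.3 FPKM and the coat protein Plin2 1.47-fold, whereas Fitm1 was 15.4-fold lower. Among the lipases, Mgll was 5.05-fold lower, and Pnpla2, the first enzyme of fat breakdown, was called lower with the deposited scaling and higher with equal totals, at 53.3 and 35.6 FPKM.

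Genes of one-carbon metabolism changed in opposite ways along its branches. Of 16 serine and folate genes 8 rose and 8 fell (9 higher and 5 lower with equal totals). Those that rose included the serine synthesis genes Phgdh, Psat1 and Psph and the mitochondrial folate enzyme Mthfd2. Phgdh, the first enzyme of serine synthesis, read 23.3, 2.02, 13.5 and 5.93 FPKM in the normal livers and 61.8, 66.9 and 54.9 FPKM in the tumours, Psat1 rose 7.24-fold, Psph 2.54-fold and Mthfd2 from 0.673 to 8.72 FPKM. The cytosolic folate enzymes Shmt1 and Mthfd1 were 5.22-fold and 4.69-fold lower, and the mitochondrial Shmt2 2.81-fold. In the methionine cycle 12 of 15 genes fell (4 higher and 10 lower with equal totals) and Mat2a, the isoform of methionine adenosyltransferase outside adult liver, rose 1.37-fold. Its liver isoform Mat1a was 5.16-fold lower and Gnmt, which uses up its product, 12.7-fold lower. Cbs, which takes homocysteine out of the cycle, was not called, at 54 and 62.9 FPKM. In the pentose phosphate pathway 3 of 9 genes rose and 3 fell, with G6pdx, its first enzyme, 5.07-fold higher, and with equal totals all 9 were higher.

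**Figure D2:**
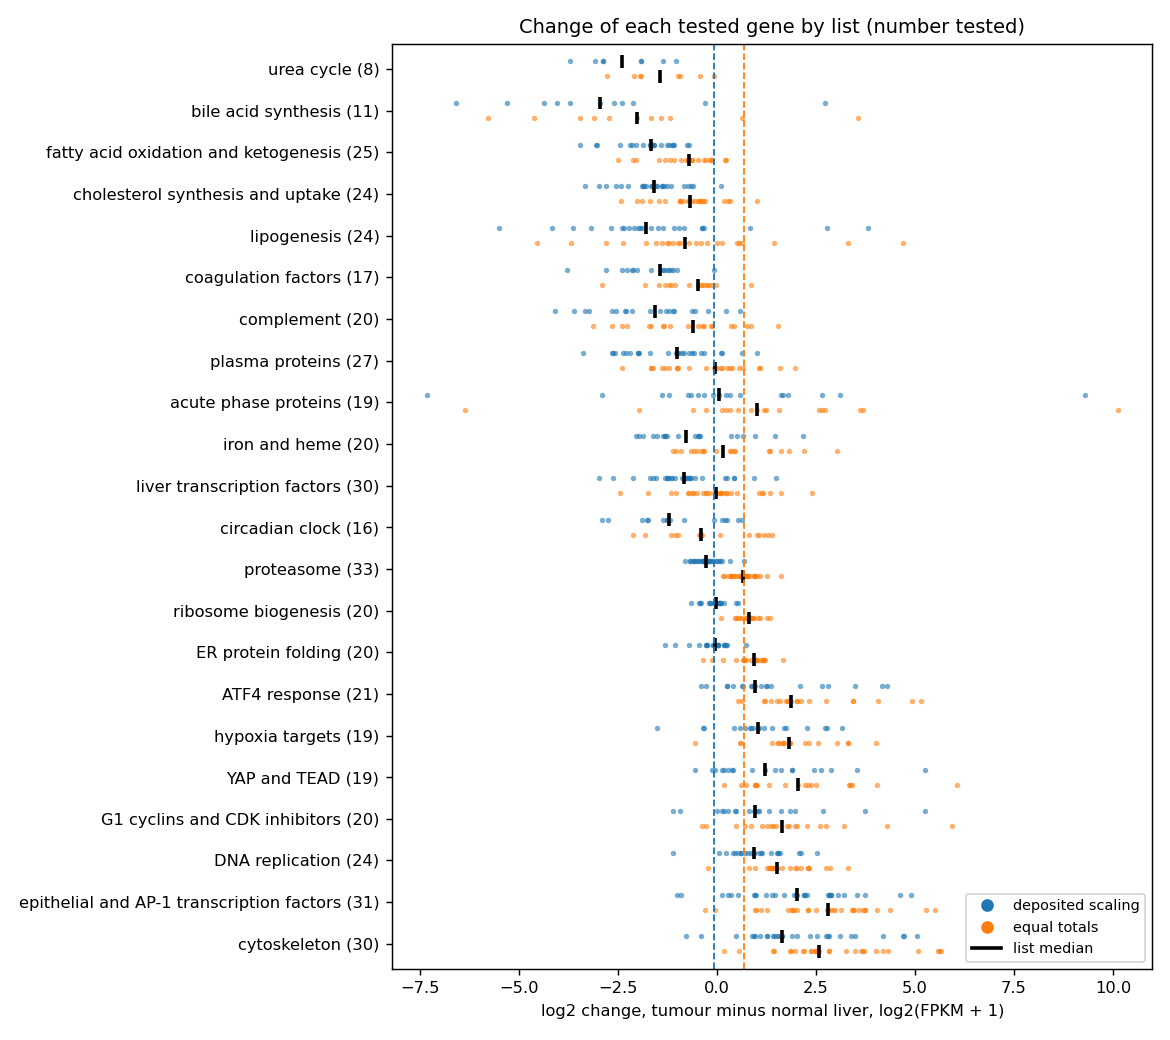
Log2 change (tumour minus normal liver, log2(FPKM + 1), horizontal axis) of each tested gene in 22 gene lists (rows), with the deposited scaling (blue, upper points) and with equal totals (orange, lower points), and the median of each list as a black bar. The dashed lines mark the median of all tested genes, -0.09 and 0.69. Urea cycle, bile acid synthesis and fatty acid oxidation lie left of both lines, the cytoskeleton list right of both, and the proteasome list lies near the median of all genes in each scaling.

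Position markers of the liver lobule fell on both sides. Of 15 genes of hepatocytes near the central vein 11 fell and none rose (10 and 4 with equal totals). Of those tested 4 were under 1 FPKM in every tumour and passed the filter through normal liver alone. Glutamine synthetase, Glul, read 209, 200.3, 196 and 187 FPKM in the normal livers and 11.3, 19.3 and 24.8 FPKM in the tumours, and Cyp1a2 was 78.3-fold lower. The Wnt target Axin2 was low in normal liver already, at 1.64 FPKM, and stood at 0.192 FPKM in the tumours. Slc1a2, a glutamate transporter of this zone, went from 11.5 to 0.399 FPKM. Of 12 genes of hepatocytes near the portal vein 8 fell and 3 rose (4 higher and 7 lower with equal totals). Hal, histidine ammonia-lyase, was 8.54-fold lower. Those that rose were E-cadherin, Cdh1 (4.95-fold), Apoa4 (4.09-fold) and Aldh1b1 (1.95-fold). Cyp2f2, a P450 of this zone, and the glutaminase Gls2 were 14.6-fold and 5.45-fold lower.

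Sexually dimorphic liver genes changed, and so did genes of the growth hormone axis. Of 11 male-biased genes 10 fell under both scalings, and the 1 not called was Mup20. Of the 11, 4 were under 1 FPKM in every tumour and passed the filter through normal liver alone. Hsd3b5, a steroid dehydrogenase of male liver, read 259, 211, 246 and 274 FPKM in the normal livers and 0, 0.0363 and 0.273 FPKM in the tumours. The P450 Cyp2d9 and the anion carrier Slco1a1 were 9.78-fold and 33.2-fold lower. Of 15 female-biased genes 5 were tested, 2 rose and 1 fell (3 higher and 0 lower with equal totals). Cyp2a4 rose from 0.817 ± 1.0 FPKM (n = 4, SD) to 55.3 ± 19.5 FPKM (n = 3, SD), with reads that could be shared with its close paralog, and Cyp17a1 from 0.551 ± 0.235 FPKM (n = 4, SD) to 36.8 ± 14.8 FPKM (n = 3, SD). Acot3, a thioesterase, was the member called lower, with the deposited scaling only, at 4.16 and 1.04 FPKM, and the P450 Cyp2b9 and the monooxygenase Fmo2 were not called. The transcripts of 4 Y-linked genes were detected in all 7 libraries and Xist was at most 0.019 FPKM in each. Ghr, the growth hormone receptor, was 11-fold lower, and its products Igf1 and Igfals were 6.56-fold and 13.1-fold lower. The IGF-binding proteins moved both ways. Igfbp1 and Igfbp3 were 13.8-fold and 13.4-fold higher, whereas Igfbp2 was 18.5-fold lower. Igf2, a fetal growth factor, stood at 1.27 and 1.37 FPKM and was not called. Socs3, a feedback inhibitor of cytokine receptors, rose 2.27-fold, and Socs2, which growth hormone induces, was not called, at 4.19 and 6.1 FPKM.

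Transcription factors of the hepatocyte were reduced to unequal degrees. Of 30 tested, 4 rose and 22 fell, and with equal totals 8 rose and 9 fell. Of those tested 3 were under 1 FPKM in every tumour. The xenobiotic receptor CAR, Nr1i3, read 9.15, 10.1, 8.88 and 9.1 FPKM in the normal livers and 0.262, 0.255 and 0.393 FPKM in the tumours. Cebpa read 474, 435, 433 and 486 FPKM in the normal livers and 78.3, 105 and 138 FPKM in the tumours, 4.27-fold lower. Hnf4a, the receptor that holds hepatocyte identity, was 1.86-fold lower with the deposited scaling (log2 change -0.89) and not called with equal totals (0.08), and the same held for Foxa2, Foxa3 and the bile acid receptor Nr1h4. Foxa1 was not called, and the call of Foxa2 was lost on leaving out normal liver replicate 2 or 3 or Akt/Nras replicate 1 (adjusted p by limma from 0.0559 to 0.111). Prox1, Nr5a2 and Pparg rose 1.39-fold, 1.21-fold and 2.45-fold, and the call of Nr5a2 was lost on leaving out normal liver replicate 1, 2 or 3 or Akt/Nras replicate 2 or 3 (adjusted p by limma from 0.0526 to 0.125).

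Most tested factors of a second list rose instead. Of 38 epithelial, ETS, AP-1 and NF-kappaB factors listed, 31 were tested, 27 rose and 2 fell (29 higher and 1 lower with equal totals), and 12 of those tested were under 1 FPKM in every normal liver. Sox9 read 0.516, 0.997, 0.48 and 0.631 FPKM in the normal livers and 39.5, 41.2 and 36.9 FPKM in the tumours, and Sox4 read 0.445, 0.558, 0.174 and 0.26 FPKM in the normal livers and 39.5, 42.9 and 35.5 FPKM in the tumours. Jun rose 4.45-fold, Junb 4.9-fold and Elf3, an ETS factor of epithelia, 14.7-fold. The ERK-responsive ETS factor Etv4 rose from 0.065 ± 0.0624 FPKM (n = 4, SD) to 11.3 ± 0.917 FPKM (n = 3, SD), and Relb of the noncanonical NF-kappaB pathway from 0.451 to 9.51 FPKM. Myc read 2.51, 15.1, 8.08 and 3.88 FPKM in the normal livers and 9.8, 5.36 and 5.77 FPKM in the tumours, with overlapping groups, and was not called (log2 change 0.13, 95% interval -0.83 to 1.09). With equal totals Myc was called higher, with a log2 change of 0.96. Mycn rose from 0.728 to 4.65 FPKM. Fosl1 and Klf5 did not reach the filter, at 0 and 0.408 FPKM and 0.0358 and 1.43 FPKM. The factors called lower were Mycl and Cebpb, and Cebpb, at 265 and 131 FPKM, was not called with equal totals.

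By the family given for each transcription factor in the deposited table, of 646 tested factors 219 were higher and 201 lower (490 higher and 42 lower with equal totals). The ETS family had 12 higher and 2 lower of 19 (18 higher and 0 lower with equal totals), and the Rel homology family, which holds NF-kappaB, 6 higher and 0 lower of 7 (7 higher and 0 lower with equal totals). Nuclear receptors were mostly lower with the deposited scaling. The steroid receptor family had 5 lower of 5, the family of RXR and HNF4 6 of 7 and the thyroid receptor family 9 lower and 3 higher of 16. With equal totals the steroid receptor family had 1 higher and 3 lower, that of RXR and HNF4 3 higher and 1 lower, and that of the thyroid receptor 7 higher and 6 lower. The bZIP family, which holds AP-1, C/EBP and the D-box factors, was split, 18 higher and 12 lower of 41 (31 higher and 6 lower with equal totals). Zinc fingers of the C2H2 type, 242 genes, had 59 higher and 77 lower (181 higher and 15 lower with equal totals).

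**Figure D3:**
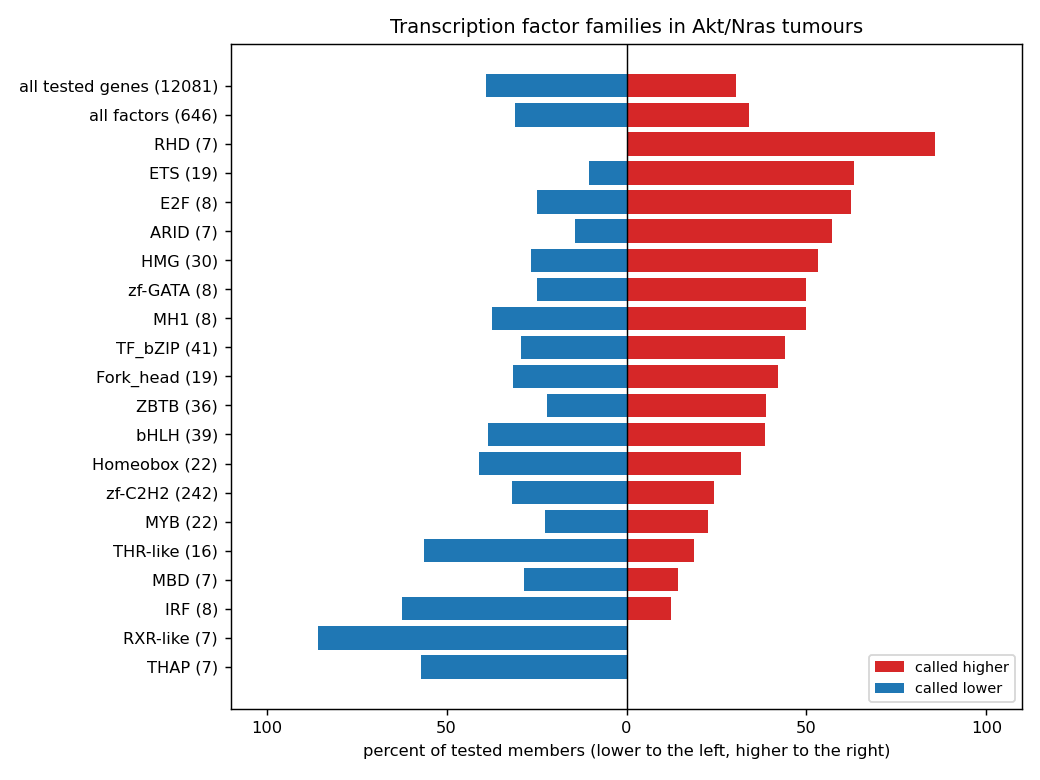
Percent of tested members called higher (right) and lower (left) in Akt/Nras tumours for transcription factor families of at least 7 tested genes, with the deposited scaling, beside all tested transcription factors and all tested genes. The number of tested members is given after each name, the Rel homology and ETS bars reach furthest to the right, and the RXR-like and THR-like bars are among those that reach furthest to the left.

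Output genes of the circadian clock were lower. Of 16 tested clock genes 2 rose and 10 fell, or 6 and 9 with equal totals. The output factor Dbp read 92.2, 77.2, 49.6 and 90.5 FPKM in the normal livers and 9.06, 9.83 and 12.4 FPKM in the tumours, and the protease Usp2 was 11.1-fold lower. The repressors Per3, Per2 and Ciart were 5.41-fold, 2.66-fold and 6.29-fold lower. Clock and Cry1 rose 1.89-fold and 1.5-fold, and the call of Cry1 was lost on leaving out normal liver replicate 1 or 4 or Akt/Nras replicate 1 or 2 (adjusted p by limma from 0.0882 to 0.135). Arntl, the partner of Clock, did not reach the filter, at 0.286 and 1.58 FPKM. The labels give no time of day for any sample, so the hour of collection and the tumour cannot be told apart.

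Promoters of the genes that changed most were searched for binding motifs, in RefSeq promoters of build GRCm38.p6, from 250 bases before to 50 bases after the start of 1 transcript a gene, on both strands. A promoter was found for 8791 tested genes. The mice are of the FVB strain and the reference is of another strain. The HNF4 motif CAAAGTCCA was in 1.3% of 1306 promoters of genes lower by at least 1 log2 unit with the deposited scaling, 0.251% of 1197 of genes higher by as much, 0.31% of genes not called with a change under 0.25, and 0.50% of all tested. Over the promoters of all 27025 genes in the reference table, tested or not, the share was 0.477%.

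The AP-1 motif was searched as TGANTCA, with any base at N, so that TGATTCA also counted as a match. It was as frequent in genes that rose (6.93%) as in genes that fell (7.04%). The share was 4.61% in genes not called, 5.10% of all tested and 7.93% of all promoters. The ETS motif CCGGAAGT was in 2.84% and 3.45% of promoters of genes that rose and fell. It was in 12.7% of genes not called, 8.67% of all tested and 4.0% of all promoters. The D-box TTATGNAA, on which Dbp, Tef and Hlf act, was in 3.83% of genes that fell and 1.67% of those that rose. It was in 1.95% of genes not called, 2.24% of all tested and 3.52% of all promoters. The TEAD motif GGAATG was in 14.5% and 14.2% of genes that rose and fell, 10.5% of genes not called, 12% of all tested and 14.6% of all promoters, so that the share over all promoters was as high. A match says only that these letters are in the window. None of the AP-1, TEAD, ETS and HNF4 words contains another of them.

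The sequences below show the matches in the promoters of the most abundant protein-coding genes of each kind, leaving out the Mup copies, so that the level, the motif and its place can be read together. They are RefSeq reference sequence, 5′ to 3′ on the strand of the gene, cut at the transcript start, with the motif in capitals. The 4 genes with the HNF4 motif that were highest in normal liver among those lower by at least 1 log2 unit were Cyp2c67, Cyp2c70 and Cyp3a11, cytochrome P450 genes of drug and steroid metabolism, and Cd302, a lectin receptor.
Cyp2c67 (chr19:39649119-39649207, - strand): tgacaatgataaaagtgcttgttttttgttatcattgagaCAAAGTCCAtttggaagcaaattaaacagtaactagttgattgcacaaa
Cyp2c70 (chr19:40187302-40187390, - strand): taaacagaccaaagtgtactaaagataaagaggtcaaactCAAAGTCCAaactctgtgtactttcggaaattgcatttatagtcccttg
Cyp3a11 (chr5:145879915-145880003, - strand): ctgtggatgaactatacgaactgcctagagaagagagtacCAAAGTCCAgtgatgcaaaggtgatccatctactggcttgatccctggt
Cd302 (chr2:60284569-60284657, - strand): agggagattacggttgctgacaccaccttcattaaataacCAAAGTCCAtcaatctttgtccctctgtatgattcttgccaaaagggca
The capitals begin 125, 64, 109 and 133 bases before the start. Cyp2c70, which makes muricholic acid from bile acid in mice, read 418, 513, 604 and 478 FPKM in the normal livers and 38.2, 42.4 and 101 FPKM in the tumours, and Cyp3a11 was 6.49-fold lower. The 4 genes with the AP-1 motif that were highest in the tumours among those higher by at least 1 log2 unit were the copper carrier Cp, the calcium-binding S100a11, the RNA-binding Zfp36l1, which shortens the life of mRNAs, and the membrane-binding Anxa2.
Cp (chr3:19956837-19956923, + strand): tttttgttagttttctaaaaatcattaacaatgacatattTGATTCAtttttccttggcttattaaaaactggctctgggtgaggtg
S100a11 (chr3:93520418-93520495, + strand): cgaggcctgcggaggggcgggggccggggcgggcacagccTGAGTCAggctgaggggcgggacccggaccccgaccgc
Zfp36l1 (chr12:80113096-80113182, - strand): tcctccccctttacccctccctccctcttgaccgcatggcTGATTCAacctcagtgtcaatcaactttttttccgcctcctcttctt
Anxa2 (chr9:69453548-69453634, + strand): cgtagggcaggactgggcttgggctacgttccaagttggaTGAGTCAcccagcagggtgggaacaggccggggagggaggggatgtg
In these the capitals begin 177, 38, 129 and 95 bases before the start. Cp and Zfp36l1 match as TGATTCA, and S100a11 and Anxa2 as TGAGTCA. The S100a11 promoter held 2 matches, of which only the marked match is shown. S100a11 read 7.35, 3.93, 10 and 5.11 FPKM in the normal livers and 481, 444 and 515 FPKM in the tumours, so that the lowest tumour was above the highest normal liver, and Anxa2 read 4.9, 2.78, 4.09 and 3.71 FPKM in the normal livers and 171, 106 and 144 FPKM in the tumours. Cp was 3.21-fold and Zfp36l1 2.31-fold higher.

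Receptors and ligands of growth factor signalling moved in opposite directions. Of 10 tested genes of the EGF receptor family 6 rose and 3 fell (7 and 2 with equal totals), and 4 of them were under 1 FPKM in every normal liver. The receptors of the hepatocyte, Egfr and Erbb3, fell. Egfr read 61.3, 43.6, 72.9 and 72.7 FPKM in the normal livers and 12.3, 11.1 and 12 FPKM in the tumours and Erbb3 33.1, 45.8, 39.5 and 35.4 FPKM in the normal livers and 6.55, 4.85 and 6.29 FPKM in the tumours. Erbb2, a receptor with no ligand of its own, rose from 0.442 to 2.61 FPKM. Among the ligands, amphiregulin, Areg, was listed at 0 in the normal livers and read 8.71, 2.22 and 4.13 FPKM in the tumours, a call lost on leaving out Akt/Nras replicate 1 (adjusted p by limma = 0.0626). Tgfa rose 3.07-fold, and Btc and Hbegf from 0.449 to 2.67 and from 0.193 to 2.5 FPKM. Errfi1, a feedback inhibitor of these receptors, was lower with the deposited scaling, at 355 and 197 FPKM, and not called with equal totals.

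Of 16 other genes of receptor tyrosine kinases and their ligands 11 rose and 5 fell (11 and 1 with equal totals), 4 of them under 1 FPKM in every normal liver. The collagen receptor Ddr1 read 0.376, 0.444, 0.328 and 0.523 FPKM in the normal livers and 42, 35.4 and 34.9 FPKM in the tumours and was above normal liver in every tumour. Gas6, a ligand of the Axl receptor, rose 5.39-fold and Axl itself 2.0-fold. The ephrin receptor Epha2 rose 3.54-fold and Fgfr4, the receptor of the intestinal signal that restrains bile acid synthesis, 1.51-fold. Insr, the insulin receptor, was 2.3-fold lower, with a log2 change of -1.06, and of only -0.20 with equal totals. Met, the receptor of hepatocyte growth factor, was 2.07-fold lower with the deposited scaling only. In the Notch pathway, in which a ligand on 1 cell triggers cleavage of a receptor on the next, 9 of 13 tested genes rose and 1 fell, and with equal totals all 13 rose, 5 of them under 1 FPKM in every normal liver. The ligand Jag1 read 0.586, 0.784, 0.861 and 0.915 FPKM in the normal livers and 19.5, 13.4 and 11.6 FPKM in the tumours, the receptor Notch2 rose 2.2-fold and the target Hes1 5.62-fold.

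Most targets of the YAP and TEAD factors rose, and Yap1 mRNA was called higher with equal totals only. Of 19 tested genes 14 rose and 1 fell (18 higher and 0 lower with equal totals), and 4 of them were under 1 FPKM in every normal liver. The target Ccn2, a matricellular protein, read 1.4, 1.29, 3.91 and 1.86 FPKM in the normal livers and 148, 107 and 90.4 FPKM in the tumours, and Ankrd1 read 0.0592, 0, 0 and 0.0786 FPKM in the normal livers and 21.9, 5.36 and 11 FPKM in the tumours. Yap1 read 7.53, 8.27, 8.23 and 8.61 FPKM in the normal livers and 8.3, 9.77 and 8.92 FPKM in the tumours, with a log2 change of 0.12 and a 95% interval of -0.05 to 0.30 in the deposited scaling, and its log2 change was 0.997 with equal totals. Its paralog Wwtr1, which encodes TAZ, rose 2.65-fold and the partner factor Tead1 from 0.73 to 5.43 FPKM. Ccn1, a relative of Ccn2, rose 6.6-fold. The TGF-beta and activin list had 17 genes higher and 6 lower of 27 (21 higher and 1 lower with equal totals), of which 8 were under 1 FPKM in every normal liver. The activin subunit Inhbb rose from 0.262 ± 0.159 FPKM (n = 4, SD) to 20.9 ± 4.76 FPKM (n = 3, SD) and Fstl3, a secreted activin antagonist, from 0.151 ± 0.188 FPKM (n = 4, SD) to 21.7 ± 9.98 FPKM (n = 3, SD). Tgfb1 rose 3.56-fold and Tgfb2 from 0.108 to 3.68 FPKM. Fst, which binds activins, rose 7.25-fold and the activin subunit Inhba 2.11-fold. Id3, a target of BMP signals, was 2.84-fold lower, while Id1 and Id2, targets of the same signals, were not called.

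Stress responses were partial. Of 21 tested genes of the ATF4 response, which follows amino acid shortage and endoplasmic reticulum stress, 17 rose and 1 fell, and all 21 rose with equal totals. Ddit4, an inhibitor of mTORC1, read 4.09, 2.54, 4.53 and 3.1 FPKM in the normal livers and 115, 69.3 and 83.8 FPKM in the tumours. The hormone Gdf15 rose 31.7-fold, asparagine synthetase, Asns, 7.08-fold and glycyl-tRNA synthetase, Gars, 2.69-fold. Trib3, Chac1, Ddit3 and Sesn2, all targets of this response, rose 2.73-fold, 2.6-fold, 2.01-fold and 2.25-fold. Atf4 mRNA stood at 52.7 and 63.2 FPKM and was not called with the deposited scaling. Chaperones of the endoplasmic reticulum gave 1 higher and 5 lower of 20, with a median log2 change of -0.04 beside -0.09 for all genes. Hspa5, the main chaperone there, stood at 225 ± 20.5 FPKM (n = 4, SD) and 257 ± 57.9 FPKM (n = 3, SD) and was not called. Herpud1, which helps to clear misfolded proteins, was 2.51-fold lower, Dnajb9, a cochaperone, 1.75-fold higher and Xbp1, at 119 and 139 FPKM, not called. With equal totals 17 of these genes were higher, with a median of 0.93 beside 0.69 for all genes.

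Antioxidant targets of NRF2 rose in 11 of 18 tested cases and fell in 4 (15 higher and 0 lower with equal totals), and 2 of those tested were under 1 FPKM in every normal liver. The quinone reductase Nqo1 rose 3.3-fold, the carbonyl reductase Cbr3 from 0.479 to 12.2 FPKM and Nfe2l2, which encodes NRF2, 2.48-fold. The glutathione transferase Gsta1 rose from 0.361 to 7.83 FPKM, heme oxygenase, Hmox1, 1.51-fold and sulfiredoxin, Srxn1, 2.82-fold. Gclm, a subunit of the enzyme that limits glutathione synthesis, was lower with the deposited scaling only, at 56.3 and 31 FPKM, while the catalytic subunit Gclc rose 1.65-fold. Genes induced by hypoxia rose in 16 of 19 cases and fell in 2 (18 higher and 1 lower with equal totals), and 3 of those tested were under 1 FPKM in every normal liver. Egln3, an oxygen-sensing hydroxylase, read 5.36, 3.43, 4.04 and 3.67 FPKM in the normal livers and 60.6, 32.9 and 43.9 FPKM in the tumours. Pfkfb4, which drives glycolysis, rose from 0.178 to 7.37 FPKM and Adm, a vasodilator peptide, 19.8-fold. Ndrg1, a common hypoxia marker, rose 7.53-fold. The mitophagy receptor Bnip3 was 2.83-fold lower, and Vegfa, the vessel growth factor, was not called at 42 ± 6.21 FPKM (n = 4, SD) and 33.2 ± 6.61 FPKM (n = 3, SD). Slc2a1, the glucose transporter of most growing cells, rose 5.73-fold, and Slc16a3, the lactate exporter, from 0.674 to 8.39 FPKM. Of 24 tested glucose, amino acid and lactate carriers 9 rose and 9 fell (17 higher and 4 lower with equal totals). Slc38a4 and Slc38a3, amino acid carriers of the hepatocyte, were 7.33-fold and 7.4-fold lower. The creatine carrier Slc6a8 rose 8.44-fold. Slc7a5 and Slc3a2, the 2 chains of a carrier of large amino acids, were not called, at 2.34 and 3.23 FPKM and 21 and 25.7 FPKM, nor was the glutamine carrier Slc1a5.

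Genes that hold back the cell cycle rose together with genes that drive it. Of 20 tested genes of this list 14 rose and 2 fell (18 higher and 1 lower with equal totals), and 4 of them, Cdkn2a and Cdkn2b included, were under 1 FPKM in every normal liver. Cdkn1a, which encodes the inhibitor p21, read 1.03, 0.376, 0.676 and 0.575 FPKM in the normal livers and 68.1, 64.1 and 54.8 FPKM in the tumours. Cdkn2b, which encodes p15, read 0.184, 0.241, 0.0752 and 0.245 FPKM in the normal livers and 10.2, 21.4 and 14.9 FPKM in the tumours, and Cdkn2a, which encodes p16 and p19ARF, 0.0729, 0.38, 0.178 and 0.194 FPKM in the normal livers and 5.08, 9.84 and 5.89 FPKM in the tumours. In all 3 genes every tumour was above every normal liver. Cyclin D1, Ccnd1, rose 3.79-fold, cyclin E1, Ccne1, 3.33-fold and Cdk4 2.1-fold. Ccnd2 rose from 0.755 to 5.92 FPKM, whereas Rbl2, a relative of the retinoblastoma protein, was 2.73-fold lower. Of 24 tested DNA replication genes 19 rose and 1 fell (23 higher and 0 lower with equal totals), and 3 of them were under 1 FPKM in every normal liver. Rrm2, the regulated subunit of ribonucleotide reductase, read 3.7, 1.01, 2.98 and 1.84 FPKM in the normal livers and 12.7, 21.9 and 19.1 FPKM in the tumours, and Mcm6 of the replicative helicase rose 3.67-fold. The DNA ligase Lig1 rose 6.39-fold and Pcna, the sliding clamp, 1.44-fold, where the call was lost on leaving out normal liver replicate 4 or Akt/Nras replicate 2 or 3 (adjusted p by limma from 0.0601 to 0.114). Tk1, thymidine kinase, was the member called lower, at 13.4 ± 1.2 FPKM (n = 4, SD) and 5.76 ± 0.902 FPKM (n = 3, SD), and was not called with equal totals. Of 18 genes of the p53 response 14 rose and 3 fell (17 higher and 0 lower with equal totals), and 5 of them were under 1 FPKM in every normal liver. Phlda3, an inhibitor of AKT, read 0.493, 0.572, 0.871 and 0.801 FPKM in the normal livers and 28.4, 39.2 and 28.5 FPKM in the tumours. Btg2 rose 12.1-fold, the ubiquitin ligase Mdm2 1.94-fold and Trp53 itself 2.27-fold. Bax, which permeabilises mitochondria in cell death, rose 2.6-fold and Ccng1 2.4-fold.

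Growth machinery had medians near those of all genes. Of 20 ribosome biogenesis genes 2 rose and 4 fell, with a median log2 change of -0.03, and 19 rose with equal totals, with a median of 0.80. Npm1, a nucleolar chaperone, stood at 64.7 and 60.2 FPKM and was not called, nor was nucleolin, Ncl, at 30 and 26.3 FPKM. Those that rose were Nop58 (2.45 and 3.81 FPKM) and Gar1 (6.44 and 9.13 FPKM), parts of the particles that modify ribosomal RNA. The call of Nop58 was lost on leaving out normal liver replicate 2 or 4 or Akt/Nras replicate 1, 2 or 3 (adjusted p by limma from 0.0633 to 0.136), and that of Gar1 lost on leaving out Akt/Nras replicate 1, 2 or 3 (adjusted p by limma from 0.0566 to 0.0782). The proteasome list turned over with the scaling, from 2 higher and 21 lower of 33 to 31 higher and 0 lower, and its medians, -0.27 and 0.67, lay beside -0.09 and 0.69 for all genes. Psmd8 (54.4 and 88.2 FPKM) and Psmd14 (18.8 and 24 FPKM), subunits of the regulatory cap, were the 2 that rose under both scalings. Lysosomal genes were split evenly (11 higher and 11 lower of 30), and 24 were higher and 2 lower with equal totals. Cd63, a tetraspanin of late endosomes, read 5.94, 1.45, 3.09 and 2.03 FPKM in the normal livers and 101, 74.1 and 84.9 FPKM in the tumours, and the cysteine protease Ctsk rose from 0.60 to 3.92 FPKM. The cholesterol exporter Npc1 of the lysosome was 3.21-fold lower. Its partner Npc2 rose 1.4-fold. The cathepsins Ctsb and Ctsd were not called, at 147 and 137 FPKM and 150.3 and 164 FPKM.

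Genes of cell shape, adhesion and the cell surface mostly rose. Of 30 tested cytoskeletal genes 28 rose and 2 fell (29 higher and 0 lower with equal totals), 2 of them under 1 FPKM in every normal liver. Vim, the intermediate filament of mesenchymal cells, read 5.02, 3.95, 4.08 and 5.74 FPKM in the normal livers and 121, 89.8 and 101 FPKM in the tumours. The tubulin Tubb2a rose 28.8-fold, the actin-binding peptide Tmsb10 28.2-fold and Actg1, a cytoplasmic actin, 6.85-fold. The 2 members called lower, Tuba4a and Rdx, did not keep that call with equal totals, where Tuba4a was called higher. Annexins and S100 proteins, calcium-dependent membrane and signalling proteins, rose in 14 of 18 cases (16 higher and 1 lower with equal totals), 4 of them under 1 FPKM in every normal liver, led by S100a11 and Anxa13 (from 0.441 to 39.4 FPKM), whereas S100a1 was 3.95-fold lower. Anxa5 read 8.41, 9.47, 8.29 and 8.24 FPKM in the normal livers and 168, 197 and 248 FPKM in the tumours. S100a6 rose from 0.953 to 22.5 FPKM and Anxa1 from 1.45 to 7.5 FPKM, while S100a4 did not reach the filter, at 0.268 and 0.481 FPKM.

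Of 27 claudin, junction and keratin genes listed 19 were tested, 13 rose and 2 fell (18 higher and 1 lower with equal totals), and 2 of those tested were under 1 FPKM in every normal liver. The keratins of simple epithelia, Krt8 and Krt18, which hepatocytes also make, rose 6.08-fold and 6.12-fold, to 1131 ± 388 FPKM (n = 3, SD) and 1063 ± 389.6 FPKM (n = 3, SD). The keratin of bile ducts, Krt19, read 0.967, 0.421, 1.58 and 0.612 FPKM in the normal livers and 12.3, 7.98 and 28.9 FPKM in the tumours, and the adhesion molecule Epcam read 1.67, 0.559, 1.05 and 1.09 FPKM in the normal livers and 37.3, 17.2 and 25.2 FPKM in the tumours. Claudin 4, Cldn4, rose from 0.0962 to 4.32 FPKM, whereas Cldn12 was 2.34-fold lower. Cldn2, a claudin that lets cations and water through, rose 2.47-fold and Cldn7 from 0.369 to 10.6 FPKM. Metalloproteinases, integrins and their partners rose in 18 of 20 tested cases (19 higher and 0 lower with equal totals), and 8 of those tested were under 1 FPKM in every normal liver. Mmp7, a protease of epithelial tumours, read 0.32, 0.104, 0.196 and 0.213 FPKM in the normal livers and 9.0, 9.9 and 29.9 FPKM in the tumours. The membrane-bound Mmp14 rose 6.93-fold, the laminin receptor Itga3 14.3-fold and the hyaluronan receptor Cd44 17-fold. The integrin chain Itgb4, of hemidesmosomes, rose from 0.192 to 8.14 FPKM. Mmp19 and Mmp15 were the 2 called lower with the deposited scaling, and Mmp19 was called higher with equal totals. The call of Mmp15 was lost on leaving out Akt/Nras replicate 1 (adjusted p by limma = 0.0713).

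Some genes were at or near 0 in normal liver and reached at least 10 FPKM in the tumours. There were 24 genes with a mean under 0.1 FPKM in normal liver and at least 10 FPKM in tumours, and 9 with the reverse. The intestinal cadherin Cdh17 read 0.0191, 0, 0 and 0 FPKM in the normal livers and 45.6, 38.4 and 28.8 FPKM in the tumours. The tubulin Tubb2b read 0.112, 0, 0.0456 and 0 FPKM in the normal livers and 51.2, 25.1 and 28.7 FPKM in the tumours and Tesc, a calcium-binding protein, 0, 0.0701, 0.0657 and 0 FPKM in the normal livers and 26.1, 26.9 and 31.5 FPKM in the tumours. The others among the 8 highest protein-coding genes were Wfdc18 (24.6 FPKM in tumours), the cornified envelope protein Sprr1a (22.3 FPKM), the protease inhibitor A2m (21.3 FPKM), the iron-binding surface protein Meltf (20.6 FPKM) and the T-box factor Tbx1 (20.4 FPKM). Tbx1 read 13.8, 25.5 and 21.7 FPKM in the 3 tumours. The genes lost were Hamp2 and 3 major urinary proteins, Mup8, Mup11 and Mup19, besides predicted or noncoding genes. Mup19 itself varied among the normal livers, at 2986, 11.6, 37.6 and 3676 FPKM, and reads of the Mup genes can be split between near-identical copies. These genes were chosen by their levels in the comparison, so the values are a description.

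**Figure D4:**
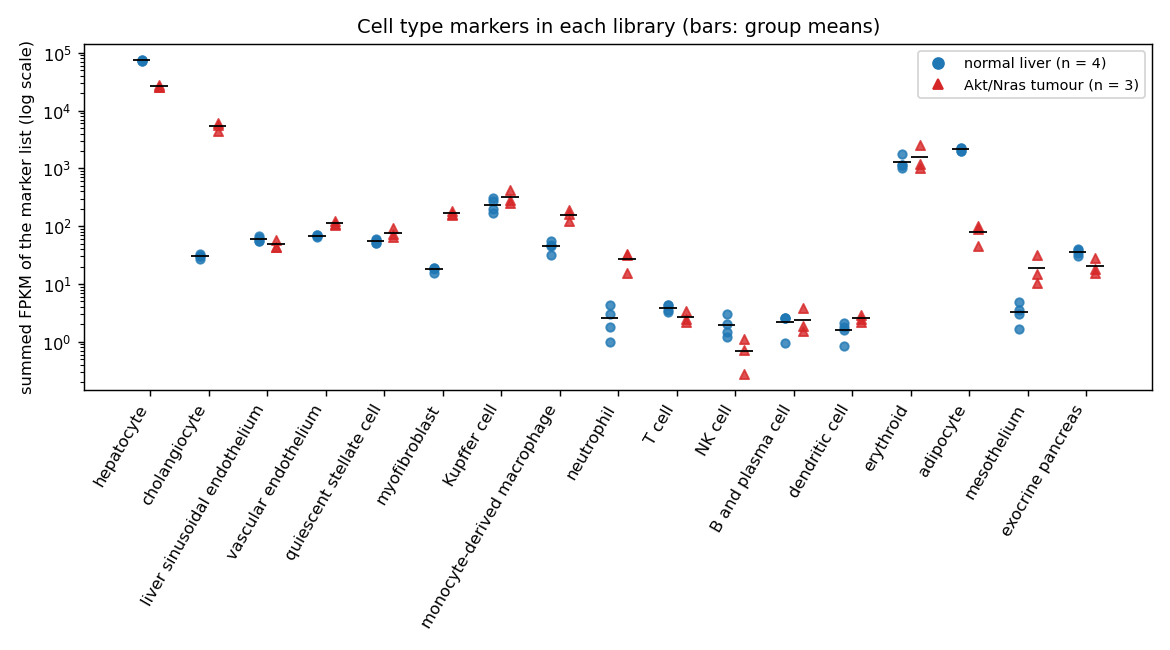
Summed FPKM, with the deposited scaling, of the marker list of each cell type (vertical axis, log scale) in the 4 normal livers (circles) and 3 Akt/Nras tumours (triangles). The cholangiocyte, myofibroblast, neutrophil and monocyte-derived macrophage sums of every tumour are above those of every normal liver, the hepatocyte sums and the adipocyte sums, which are mostly Car3 in normal liver, are below them, and the Kupffer cell, T cell and B and plasma cell sums overlap.

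Markers of other cell types moved with these gene groups, and their part in the increases above was not tested. Of 12 cholangiocyte markers 11 were tested and all 11 rose, but 6 of them were under 1 FPKM in every normal liver, so that their direction was fixed by the filter. Of 12 myofibroblast markers 9 rose (11 higher and 0 lower with equal totals), 3 of those tested under 1 FPKM in every normal liver, with sums of 15.7 to 18.9 FPKM in normal liver and 153 to 186 FPKM in the tumours. The smooth muscle actin Acta2 read 1.52, 1.27, 1.43 and 1.03 FPKM in the normal livers and 33.8, 12.4 and 8.01 FPKM in the tumours. Sinusoidal endothelial markers, 10 tested, gave 3 higher and 5 lower (6 higher and 1 lower with equal totals), and the scavenger receptor Stab2, at 3.12 ± 0.308 FPKM (n = 4, SD) and 3.03 ± 0.853 FPKM (n = 3, SD), was not called. Vascular endothelial markers gave 6 higher of 10 and none lower (9 higher and 0 lower with equal totals), 2 of them under 1 FPKM in every normal liver, and Plvap, of fenestrated vessels, rose 2.1-fold. The adipocyte list gave 2 higher and 1 lower of 3 tested, and its sum was 2020.5 to 2279 FPKM in normal liver and 45.9 to 101 FPKM in the tumours. Car3, a carbonic anhydrase that is high in these livers, made up most of the sum in normal liver, and the other 6 summed to 3.03 to 3.99 FPKM and 18.1 to 25.6 FPKM.

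Macrophage markers did not move as 1 group. Of 11 tested Kupffer cell markers 4 rose and 3 fell (4 higher and 0 lower with equal totals), and their sums were 166 to 304 FPKM in normal liver and 257 to 417 FPKM in the tumours. Clec4f and Timd4, found in resident Kupffer cells, read 56.6, 45.8, 37.3 and 65.7 FPKM in the normal livers and 10.7, 22.3 and 35.2 FPKM in the tumours and 4.09, 2.77, 2.26 and 3.76 FPKM in the normal livers and 0.616, 1.6 and 2.33 FPKM in the tumours, and both were called lower with the deposited scaling only. The groups overlapped for Timd4 and not for Clec4f. C1qa, shared by tissue macrophages, rose, with 65.1 ± 16.7 FPKM (n = 4, SD) and 134 ± 31.5 FPKM (n = 3, SD). Of 12 markers of monocyte-derived macrophages 8 were tested and all 8 rose, but 5 of them were under 1 FPKM in every normal liver, so that their direction was fixed by the filter. The list had sums of 32 to 55.8 and 121 to 187 FPKM. Trem2, of lipid-associated macrophages, rose from 0.115 ± 0.0684 FPKM (n = 4, SD) to 1.84 ± 0.38 FPKM (n = 3, SD). Of the neutrophil markers 3 were tested and rose, 2 of them under 1 FPKM in every normal liver. The list summed to 0.996 to 4.37 FPKM in normal liver and 15.5 to 32.9 FPKM in the tumours, with 4 of 12 at 0 in all normal livers. The T cell list summed to 3.28 to 4.27 FPKM in normal liver and 2.18 to 3.44 FPKM in the tumours, and the NK cell list to 1.19 to 3.04 and 0.277 to 1.11 FPKM. All marker sums are given with the deposited scaling only, and a sum lower there need not be lower with equal totals. The 1 T cell marker tested was called lower, with a log2 change of -0.39, and was not called with equal totals, at 0.15. No NK or B cell marker reached the filter.

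Of 32 chemokine and receptor genes 17 were tested, 11 rose and 4 fell (11 higher and 1 lower with equal totals), and 8 of those tested were under 1 FPKM in every normal liver. The B cell attractant Cxcl13 read 0.371, 0.291, 0.545 and 0.888 FPKM in the normal livers and 29.1, 39.2 and 26.2 FPKM in the tumours. The monocyte attractant Ccl2 read 0.15, 0.294, 0.184 and 0.199 FPKM in the normal livers and 15.5, 10.7 and 12.3 FPKM in the tumours. Cxcl16 rose 7.48-fold, and Cxcl5, an attractant of neutrophils, was at 0 in normal liver and at 1.14, 1.96 and 1.31 FPKM in the tumours. Cxcl12, which liver stroma and endothelium make, went from 58.1 ± 5.64 FPKM (n = 4, SD) to 11.2 ± 0.46 FPKM (n = 3, SD), and its receptor Cxcr4 rose from 0.284 to 6.89 FPKM. Cxcl1, another attractant of neutrophils, rose 3.21-fold. The T cell attractants Cxcl9 and Ccl5 were not called, at 1.37 and 1.16 FPKM and at 1.23 and 0.693 FPKM. In antigen presentation 5 genes rose and 4 fell of 16 (14 higher and 0 lower with equal totals). The class I genes H2-K1 and H2-D1 rose 1.25-fold and 1.48-fold, while their light chain B2m was called lower with the deposited scaling and higher with equal totals, at 2749.5 and 1790 FPKM. Tap1, the peptide transporter, rose 1.37-fold. The call of H2-K1 was lost on leaving out Akt/Nras replicate 3 (adjusted p by limma = 0.0791), and that of Tap1 lost on leaving out normal liver replicate 2 or Akt/Nras replicate 2 or 3 (adjusted p by limma from 0.0573 to 0.0955). The class II genes Cd74 and H2-Ab1 were not called, at 96 and 145 FPKM and 15.4 and 19.2 FPKM.

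Long noncoding RNAs were mostly called lower. Of 471 tested lncRNAs 48 rose and 337 (71.5%) fell, with 231 lower with equal totals, against 37.9% of 10752 protein-coding genes. The filter shaped this count, since 218 of these lncRNAs were under 1 FPKM in every tumour and 28 in every normal liver. Among the 253 with at least 1 FPKM in some tumour 124 were lower. Malat1, a nuclear RNA, was lower with the deposited scaling and not called with equal totals, at 49.1 and 23 FPKM. The neighbouring imprinted RNAs Meg3 and Rian read 0.103, 0.187, 0.0767 and 0.0298 FPKM in the normal livers and 2.4, 4.11 and 2.3 FPKM in the tumours and 0.0507, 0.0244, 0.0425 and 0.00355 FPKM in the normal livers and 2.75, 4.51 and 2.66 FPKM in the tumours, and Snhg18 rose from 0.512 to 7.61 FPKM. Mir22hg and Snhg8, host transcripts of small RNAs, were 3.92-fold and 2.69-fold lower. The imprinted fetal RNA H19 varied within the groups, at 594, 41.7, 306 and 150.2 FPKM in the normal livers and 28.5, 139 and 153 FPKM in the tumours, and was not called. Over all tested genes, abundance went with the direction: 60.5% of the fifth of tested genes with the highest mean level were lower and 18.8% higher, against 25% and 39.7% of the fifth with the lowest. With equal totals the numbers lower in these groups were 745 and 270 of 2416 and 2417.

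The 3 tumours spread a little wider than the 4 normal livers. Over 4138 genes with a mean of at least 10 FPKM across the 7 libraries, the median SD of log2(FPKM + 1) was 0.107 in normal liver and 0.15 in the tumours. The called genes with the widest tumour range, among those with a mean of at least 20 FPKM there, included Gapdh, Cyp2e1, Wfdc18, Fos and Mup12. Fos, an immediate early gene, read 48.1, 8.04 and 15.2 FPKM in tumours 1 to 3 and 0.726, 0.332, 0.355 and 0.386 FPKM in the normal livers. Ier3, also induced early, was highest in the same tumour, at 126, 32.1 and 57.3 FPKM. Cyp2e1, a pericentral P450, ran the other way, at 11.7, 71.3 and 114 FPKM against 6987, 5913, 6626 and 6938 FPKM in the normal livers. Tumour 1 was thus highest for the early genes and lowest for Cyp2e1. Wfdc18 was high in tumour 3, at 6.28, 15 and 52.4 FPKM. Without tumour 1 the log2 change of Cyp2e1 was -6.18, and it was -7.13 with all 3.

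**Figure D5:**
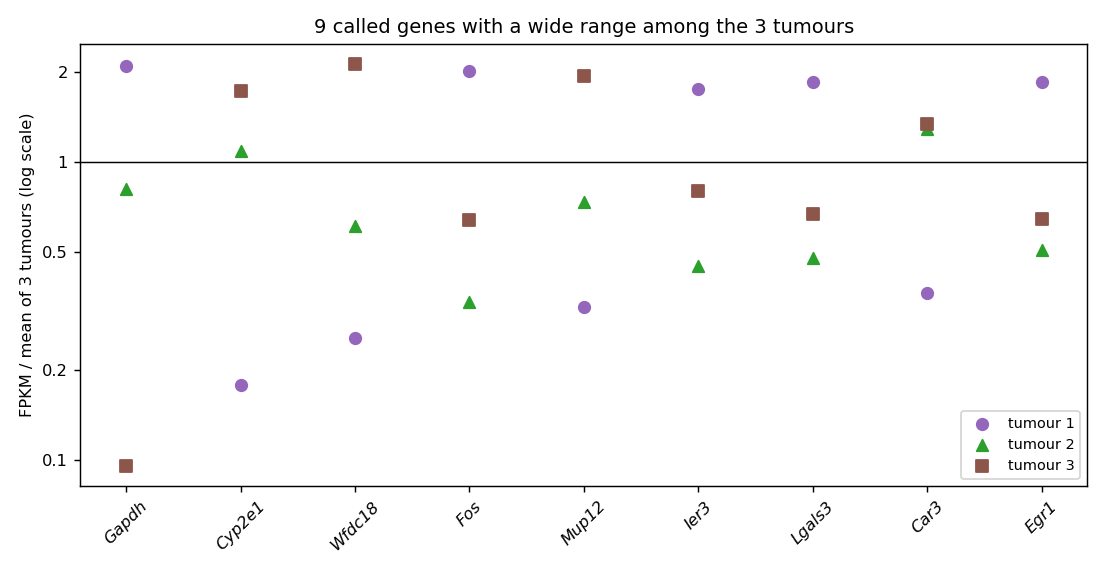
FPKM in each tumour divided by the mean of the 3 tumours (vertical axis, log scale) for 9 called genes among those with the widest range among tumours, all with a mean of at least 20 FPKM in tumours. Tumour 1 is above the mean for Gapdh, Fos, Ier3, Lgals3 and Egr1 and below it for Cyp2e1, Wfdc18, Mup12 and Car3.

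Gapdh, often used as a reference transcript, was the gene with the widest range. It read 2.33, 2.7, 1.97 and 1.98 FPKM in the normal livers and 70.8, 27.4 and 3.22 FPKM in the tumours, a 22-fold range among tumours, and its reads are uncertain because the genome holds many near-identical processed copies of it. Its call was lost on leaving out Akt/Nras replicate 1 or 2 (adjusted p by limma from 0.0752 to 0.113). Of 18 tested genes that serve as references 6 were higher and 6 lower (16 higher and 1 lower with equal totals). Actb rose 2.68-fold, and Sdha, a subunit of mitochondrial complex II, was 2.86-fold lower. Ppia, Rplp0 and Hprt were not called, at 129 and 137, 423 and 499, and 56.8 and 48.3 FPKM, and all 3 were called higher with equal totals.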

How the data were processed

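RNA of whole mouse liver tissue was sequenced in 10 libraries. The deposited values are FPKM per gene and library, made by the authors. FastQC 0.11.7 and genome build GRCm38 were used per the submitters' processing notes, and the aligner and counter were not given in the sources used here. Labels do not settle whether polyA RNA was captured or ribosomal RNA was removed. Every column of values belonged to 1 of the 10 samples, so 0 columns were left out. FPKM times the gene length of the table gave whole reads for 100% of values within a tolerance of 0.02 reads. These reads gave the depth of each library and the voom alternative, which called 3661 genes higher and 4666 lower. Voom took the divisor of the deposited FPKM as library size, so its counts keep the deposited scaling and cannot test it. The divisor in the deposited FPKM was 0.629 to 0.668 times the reads in normal liver and 1.00 to 1.06 times in the tumours. Relative to the reads, deposited levels thus differ in scale between the groups. The factors of the median-ratio scaling were 0.952 to 0.970 in normal liver and 0.995 to 1.001 in the tumours. Those of equal totals were 0.708 to 0.761 and 1.38 to 1.51.

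Genes with FPKM of at least 1 in 3 or more of the 7 libraries were fitted with limma 3.58.1 in R 4.3.3 on log2(FPKM + 1), with all 10 libraries, a mean per group and a variance trend. The test was two-sided, with Benjamini-Hochberg adjustment over 12081 genes and a threshold of 0.05. Fold changes are ratios of mean FPKM with the deposited scaling, and log2 changes on the log2(FPKM + 1) scale understate low genes. With equal totals falls are smaller and rises larger. The script was tested on simulated data. Alternatives were 3 other scalings, a pseudocount of 0.1, a minimum of 5 FPKM, no filter, the 7 libraries alone, array weights, voom, a replicate block and each library left out.

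Members, gene lists and cell type markers were chosen with earlier results of these data known. Genes were named where a list marked them, where they had up to 2 largest changes each way in a list, for level (10 highest per group), for being near 0 in 1 group, and for the 6 widest ranges among tumours. Some genes that this rule takes are given in counts only, and some items are not reported here. Genes shown for their promoters, exceptions in small counts and further genes in the plot of tumour ranges were named after their values were seen. Mean levels joined by "and" or "to" give normal liver first.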

Additional observations from a re-analysis of the deposited data

Results flagged for a closer look

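In 14 of 311 named genes examined, 1 normal liver stood apart from the other 3 by Dixon's criterion for 4 samples, where chance alone gives about 1 in 20. Replicate 3 was high for Alas1, at 302 FPKM beside 93 to 122 in the others, for Socs2, at 7.75 beside 2.47 to 3.29, and for Pnpla2, at 57.3 beside 51.3 to 52.3, and low for Igfbp3, at 8.18 beside 11.6 to 12.2. Replicate 2 was high for Acot3, at 8.69 beside 2.1 to 3.06, for Cyp2a4, at 2.31 beside 0.197 to 0.522, for Mycl, at 3.2 beside 2.5 to 2.58, for Gclm, at 61.9 beside 54 to 54.9, and for Anxa5, at 9.47 beside 8.24 to 8.41. It was low for Gar1, at 4.1 beside 7.08 to 7.5, and for Mat2a, at 18.2 beside 20.4 to 20.7. Replicate 4 was high for Mup11, at 118 beside 2.55 to 6.76, and low for Slc6a8, at 1.02 beside 1.44 to 1.52. Replicate 1 was low for Tgfa, at 3.82 beside 4.48 to 4.5 FPKM. Groups of 3 tumours are too small for this criterion.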

How the results depend on the processing

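With 3690 genes called higher and 4714 lower by limma at the deposited scaling, equal totals gave 8349 and 1718, omitting the 50 highest genes from the library totals 7171 and 2236, and the median-ratio scaling 3932 and 4427. A minimum of 5 FPKM left 6929 genes, of which 1833 were higher and 3397 lower, and no filter gave 5208 and 5316 of 26439. The other alternatives gave 3417 to 3871 higher and 4390 to 4939 lower. Leaving out 1 library gave 3460 to 3622 higher and 4416 to 4564 lower. The replicate block gave 3417 and 4390. Deviations from the group means correlated across genes at 0.022, -0.001 and 0.063 for samples of the same number. For samples of different number the correlations were -0.038 to 0.020. So few pairs cannot settle whether the numbers pair the samples.

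Of 367 named and tested genes 13 lost a call without 1 library, as given beside their values, and none of these 13 changed sign. Among genes called with the deposited scaling or with the alternative, 27 turned from a negative to a positive log2 change with equal totals: Abcc3 0.31, Alb 0.0062, B2m 0.35, Ctsb 0.85, Errfi1 0.13, Fgb 0.10, Foxa1 0.51, Foxa2 0.24, Foxa3 0.10, Gclm 0.10, Gstm1 0.66, Hnf4a 0.078, Hprt 0.72, Mmp15 0.23, Mmp19 0.28, Ncl 0.76, Npm1 0.88, Orm1 0.32, Pnpla2 0.36, Pros1 0.85, Rdx 0.17, Rn18s-rs5 0.30, Sqle 0.32, Srebf1 0.12, Stab2 0.68, Tuba4a 0.56 and Vegfa 0.61. With the 50 highest genes omitted from the library totals 15 did: Abcc3 0.036, B2m 0.070, Ctsb 0.57, Gstm1 0.38, Hprt 0.44, Mmp19 0.025, Ncl 0.49, Npm1 0.60, Orm1 0.043, Pnpla2 0.081, Pros1 0.59, Rn18s-rs5 0.023, Sqle 0.053, Stab2 0.47 and Tuba4a 0.29. The other alternatives turned 0 such genes, and of these only the median-ratio scaling changed the scaling. A further 7 and 6 named genes, called in neither, changed sign under these 2 scalings. The cause was not tested beyond the scaling itself. Levels under 1 FPKM rest on few reads, as 1 read in a gene of 1 kilobase is 0.0469 to 0.113 FPKM in these libraries.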
